A study of Mus musculus with 4 samples.

Results

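The forkhead (Fox) factor genes were examined for nearby Pax7 binding in mouse muscle progenitors. They were taken as the autosomal protein-coding genes of the GENCODE annotation of NCBIM37 (mm9) whose symbol is Fox, 1 letter from a to s, and a number. This rule gave 37 of 21418 autosomal protein-coding genes. Pax7 peaks were assigned to a gene when the peak summit, the position of strongest signal, lay within 50 kb of its transcription start site (TSS). Of the 20579 Pax7 peaks in the deposited list, 40 lay near a forkhead gene, and they made 42 gene-peak pairs because 2 peaks were shared between neighbouring forkhead genes.

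Pax7 binding had been measured by ChIP-seq in iPax7 cells, which are mouse embryonic stem cells (ESCs) with 1 copy of a Pax7 cDNA next to Hprt under a tet-responsive element, so that doxycycline (Dox) switches it on. Embryoid bodies received 1 µg/ml Dox from day 3 of differentiation, PDGFRα+FLK1- cells were sorted on day 5 and grown with Dox and 10 ng/ml basic FGF for 4 further days, and all libraries came from day 9, after 6 days of Dox. Chromatin gave 2 ChIP libraries with a Pax7 antibody and 2 libraries of input, sheared chromatin without antibody. All came from cells that carried the transgene and received Dox. The list thus describes Pax7 in the +Dox state and holds no comparison with uninduced cells. It does not separate Pax7 made from the transgene from Pax7 of the endogenous gene. Peaks were called on the merged replicates. A peak therefore has no replicate error, no test between samples was possible, and the read depth of single peaks is unknown from the list. Fold enrichment is the peak caller's ratio of ChIP to local background at the summit and serves here only to describe and rank peaks. No expression was measured in these libraries, so the identity of the sorted cells could not be checked against marker genes, nor could it be seen which forkhead genes were transcribed.

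Forkhead factors share the winged-helix DNA-binding domain. Some of them, such as Foxa1 and Foxa2, can bind closed chromatin and are called pioneer factors, a property that has also been ascribed to Pax7. Foxc1 and Foxc2 act in the paraxial mesoderm from which the somites and skeletal muscle arise, Foxk1 is known from myogenic progenitor cells and recruits the Sin3 co-repressor, and Foxo3 drives genes of protein breakdown during muscle atrophy. Pax7 itself binds DNA through a paired domain and a homeodomain and marks the precursors of skeletal muscle.

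The sequences below run 50 bases to either side of the summits of the 7 forkhead-linked peaks that held a Pax motif and of a pair of the strongest peaks that did not (mm9, plus strand, 5′ to 3′). Capitals mark the Pax motif on either strand. It is GTCACG, shown as its reverse complement when on the minus strand and a core of paired-domain sites, in 6 of the 7, and ATTAGTCAC, a homeobox joined to a paired half-site, in the Foxb2 sequence 25.1 kb upstream. Runs without capitals held no Pax motif.
Foxp1, 16.8 kb upstream, chr6:99233291-99233391: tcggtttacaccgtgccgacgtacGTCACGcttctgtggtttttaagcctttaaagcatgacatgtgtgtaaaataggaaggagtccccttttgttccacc
Foxe1, 35.6 kb upstream, chr4:46320809-46320909: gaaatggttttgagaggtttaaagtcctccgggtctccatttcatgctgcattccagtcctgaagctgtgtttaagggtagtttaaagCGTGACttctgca
Foxj2, 9.30 kb upstream, chr6:122760582-122760682: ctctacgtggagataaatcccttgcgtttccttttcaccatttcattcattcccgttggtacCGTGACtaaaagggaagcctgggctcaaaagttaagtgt
Foxo3, 1052 bp upstream, chr10:41997563-41997663: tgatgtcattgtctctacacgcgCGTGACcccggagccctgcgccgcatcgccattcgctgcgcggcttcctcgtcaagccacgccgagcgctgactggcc
Foxf2, 3119 bp downstream, chr13:31720754-31720854: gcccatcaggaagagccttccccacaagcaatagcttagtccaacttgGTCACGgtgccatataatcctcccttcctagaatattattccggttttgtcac
Foxr1, 33.3 kb downstream, chr9:44215604-44215704: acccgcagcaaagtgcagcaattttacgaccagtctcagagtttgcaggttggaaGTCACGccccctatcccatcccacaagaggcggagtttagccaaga
Foxb2, 25.1 kb upstream, chr19:16973212-16973312: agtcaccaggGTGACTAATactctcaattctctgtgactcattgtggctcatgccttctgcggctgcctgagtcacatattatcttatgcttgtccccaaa
Foxb2, 6.52 kb upstream, chr19:16954600-16954700: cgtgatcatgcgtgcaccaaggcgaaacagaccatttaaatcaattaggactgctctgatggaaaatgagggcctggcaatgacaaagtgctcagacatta
Foxj1, 43.3 kb upstream, chr11:116240011-116240111: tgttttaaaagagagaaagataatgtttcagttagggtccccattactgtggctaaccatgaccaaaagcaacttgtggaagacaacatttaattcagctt

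To ask whether Pax7 peaks gathered around forkhead genes, the number of summits within 50 kb was counted for each gene and set beside all autosomal coding genes. At least 1 peak lay near 24 of the 37 forkhead genes, or 64.9% (95% Wilson interval 48.8% to 78.2%, counting error only), against 56.8% of all coding genes. At least 2 peaks lay near 11 genes, or 29.7%, against 30.7% of all. At least 5 lay near 2 genes, Foxk1 and Foxd4, or 5.41% against 2.79% of all. The mean was 1.14 peaks per gene both for forkhead genes and for all coding genes, and the median was 1 in both. The 95% intervals of all 3 shares included the background, so by number of peaks within 50 kb no difference of the forkhead genes from all coding genes was detectable. Among the members, 13 genes had no peak, 13 had 1, 8 had 2, 1 had 3 and 2 had 5.

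The position of the peaks was less alike than their number. No forkhead gene had a summit within 1 kb of its TSS (0 of 37, with an upper Wilson limit of 9.41%), whereas 12.1% of all coding genes did. Within 5 kb there were 2 genes, Foxo3 and Foxf2, or 5.41% (interval 1.5% to 17.7%), against 18.6% of all. Forkhead promoters were more often rich in CpG dinucleotides (25 of 37, or 67.6%) than those of all coding genes (45.1%), and over all genes such promoters held peaks more often. With only CpG-rich promoters counted, 0 of 25 forkhead genes (upper limit 13.3%) and 21.4% of all such genes had a summit within 1 kb. With only peaks of at least 5-fold counted, the background within 1 kb was 6.15%, which the forkhead interval included. With every coding transcript start counted, the forkhead share within 1 kb was 8.11% (interval 2.8% to 21.3%), against 13.7% of all. No difference was detectable under these 2 settings. Within 25 kb of the gene TSS the forkhead share was still the lower, with 13 genes (35.1%, interval 21.8% to 51.2%, against 39.9% of all). At 50 kb it was the higher, as given above, and within 100 kb 32 genes had a peak (86.5%, interval 72.0% to 94.1%, against 73.6%). At 25, 50 and 100 kb the intervals included the background. The median distance from the TSS to the nearest summit was nonetheless alike, 38.1 kb for forkhead genes and 38.6 kb for all, but the quartiles were narrower for forkhead genes, 17.8 to 64.8 kb against 10.0 to 107 kb.

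**Figure D1:**
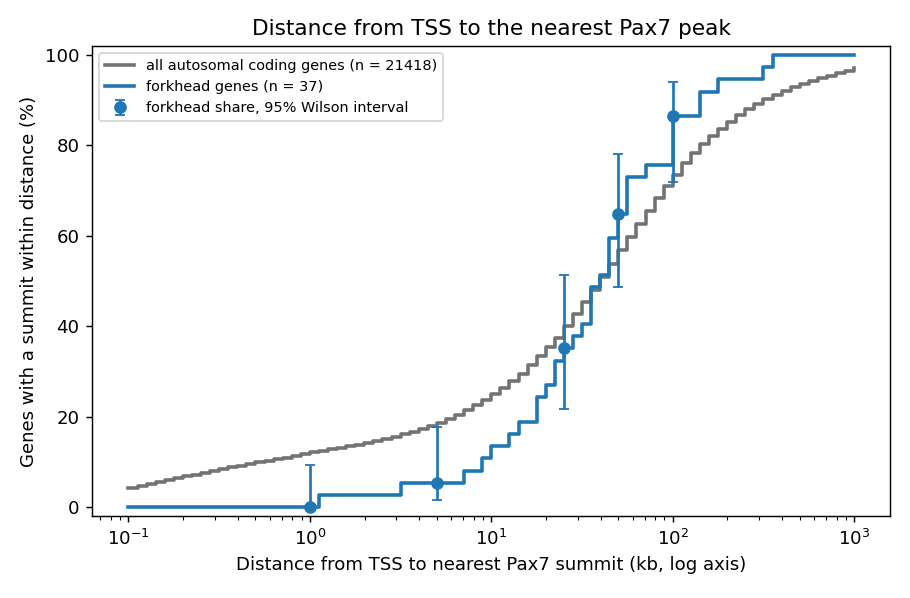
Share of genes (%, vertical axis) with a Pax7 summit within a given distance of the TSS (kb, log axis), for the 37 forkhead genes (blue) and all 21418 autosomal coding genes (grey). Points with bars are forkhead shares with 95% Wilson intervals. The blue line stays at 0 up to 1 kb, where the grey line is at 12.1%, meets it between 25 and 50 kb, and lies above it at 100 kb (86.5% against 73.6%).

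The gene-peak pairs are made of the same summits, so their distances restate this result and are no separate support for it. Their median distance was 29.7 kb, against 22.8 kb over all pairs of coding genes and peaks within 50 kb. Of the 42 pairs, 31 (73.8%) were more than 20 kb apart, against 54.9%. The lack of pairs within 1 kb (0 of 42, against 11.4% of all pairs) is part of both values. Pairs are not independent units either, since Foxk1 and Foxd4 gave 5 each and 2 peaks were counted for more than 1 gene. Summits lay upstream of the forkhead gene in 26 pairs (61.9%), against 50.6% of all pairs. Forkhead genes also had more room around them: 14 of 37 (37.8%) had no other coding TSS within 50 kb, against 25.3% of all coding genes. Of these 14 isolated genes 9 had a peak (64.3%, interval 38.8% to 83.7%), with a mean of 1.36 per gene, whereas 50.8% of all isolated coding genes had one, with a mean of 0.991. The 18 forkhead genes with 1 or 2 other coding TSSs within 50 kb were level with all genes of that kind, with a mean of 1.11 against 1.09, and 12 of them had a peak, against 55.8%. The 5 with 3 or more others had a mean of 0.6 against 1.33, and 3 of them had a peak, against 62.5%. The part of gene spacing in these values was not tested.

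**Figure D2:**
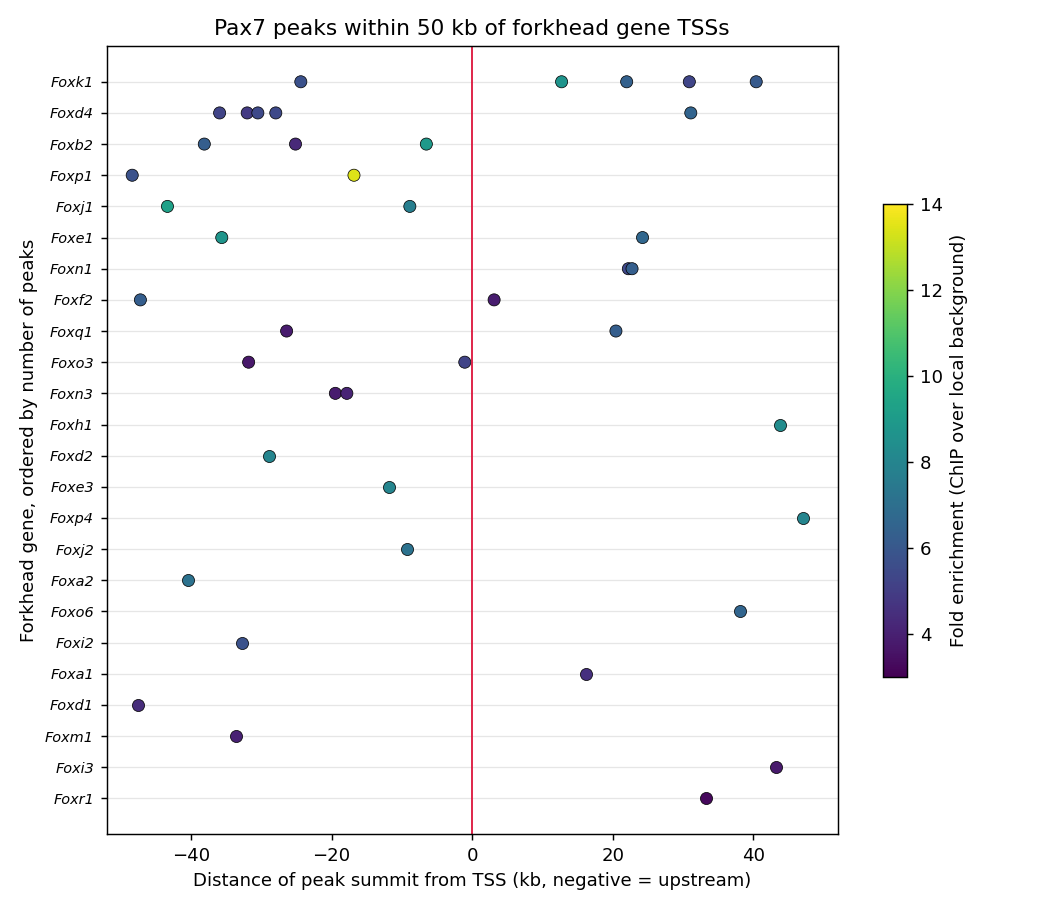
Pax7 peaks within 50 kb of the TSS for the 24 forkhead genes with at least 1 such peak (rows, ordered by number of peaks). The horizontal axis is the distance of the summit from the TSS in kb with upstream to the left, and colour is the fold enrichment. The red line at the TSS has no point within 1 kb of it, 5 points each stand in the rows of Foxk1 and Foxd4, and the yellow point is the 13.4-fold peak upstream of Foxp1.

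Among the Foxk, Foxo and Foxp genes, families known from metabolism and from transcriptional repression, 5 of 7 had a peak, with 11 pairs. Their share was 71.4%, against 56.8% of all coding genes. Foxk1 (chr5:142877451-142937968, plus strand) had 5 peaks, more than 97.2% of coding genes, and no other coding TSS lay within 50 kb of its own. A first peak was intergenic, 24.4 kb upstream, with 5.72-fold enrichment. The other 4 lay in introns of Foxk1 itself, 12.7, 22.0, 30.9 and 40.4 kb into the gene, with fold enrichments of 8.71, 6.36, 5.25 and 6.08. The strongest, chr5:142889965-142890334, had a −log10 q of 57.8, the second highest of the 40 peaks. All 5 Foxk1 peaks were thus of at least 5-fold, and none of them held a Pax motif within 50 bp of its summit. Its closest relative, Foxk2, had none, since its nearest summit was just outside the window, 51.3 kb upstream in an intron of 1110031I02Rik with 6.33-fold enrichment.

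Foxp1, a regulator of lymphocyte, heart and neuronal development, held the strongest peak of the set. It ran over chr6:99233154-99233504, 16.8 kb upstream of the Foxp1 TSS in an intron of Eif4e3, which encodes a cap-binding translation factor, with a fold enrichment of 13.4 (−log10 q 61.0). This value was above 98.1% of all autosomal peaks. It was the only forkhead-linked peak of at least 10-fold, so that 1 of 37 forkhead genes (2.70%, interval 0.479% to 13.8%) had such a peak within 50 kb. Among all coding genes the share was 7.11%, which the interval included. GTCACG lay 23.5 bp from the summit of this Foxp1 peak, as shown above. The second Foxp1 peak was 48.4 kb upstream, also in Eif4e3, with 5.76-fold enrichment. Foxp4, which acts in lung and gut development, had 1 peak, 47.1 kb downstream in its own intron, with 8.02-fold enrichment.

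Foxo3 (chr10:41901647-41996561, minus strand) had the summit closest to a forkhead TSS, 1052 bp upstream. This peak, chr10:41997462-41997778, had 5.23-fold enrichment, near the middle of the list (above 50.2% of peaks), and carried a minus-strand GTCACG at 24.5 bp from the summit, in GC-rich sequence (67.3% GC over the printed window, against a median of 46.5% for the 40 peaks). A second Foxo3 peak was 31.8 kb upstream with 3.72-fold enrichment. Foxo6, known from the brain, had 1 peak 38.1 kb downstream with 6.56-fold enrichment.

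Of the 7 genes of mesoderm and mesenchyme, 4 had a peak (57.1%, against 56.8% of all coding genes), with 6 pairs. Foxc1 and Foxc2 had none. The nearest summit to Foxc2 was 92.3 kb upstream with 4.19-fold enrichment. That nearest to Foxc1 was 178 kb upstream, and it was the peak in the intron of Foxf2. Foxq1, Foxf2 and Foxc1 follow each other on chromosome 13, with 67.6 kb from the Foxq1 TSS to that of Foxf2 and 181 kb from there to Foxc1. Across this stretch, 1 summit lay between the TSSs of Foxq1 and Foxf2 and 1 between those of Foxf2 and Foxc1. The peak between Foxq1 and Foxf2, chr13:31670341-31670716, was in an exon of the non-coding gene 1700018A04Rik, 20.4 kb downstream of Foxq1 and 47.2 kb upstream of Foxf2, and had 6.24-fold enrichment. Foxf2, a factor of gut and palate mesenchyme, had its other peak 3119 bp downstream in its own intron. That peak was weak (3.86-fold, above 14.2% of peaks), and the GTCACG in it was centred 0.500 bp from the summit, the closest match of the set. Foxq1 had a second peak 26.4 kb upstream with 3.84-fold enrichment.

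The Foxd genes of this group each had a single peak, upstream. Foxd2 had 1 peak, chr4:114610311-114610603, intergenic, with 8.02-fold enrichment, and shared it with Foxe3, a factor of lens development. It lay 29.0 kb upstream of Foxd2 and 11.8 kb upstream of Foxe3, whose TSSs are 17.2 kb apart. Foxd1, which marks the kidney stroma, had 1 peak of 4.38-fold, 47.5 kb upstream and nearer to Btf3 (10.3 kb). Foxs1 had none, with its nearest summit 51.99 kb downstream in Tpx2.

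Genes of ectoderm, nervous system and early embryo made up 10 of the 37. A peak lay near 7 of them (70.0%, against 56.8% of all coding genes), with 14 pairs. Foxd4 (chr19:24973455-24975799, minus strand), an early gene of the neural ectoderm, had 5 peaks. A row of 4 lay 27.9, 30.5, 32.0 and 35.9 kb upstream, in introns of Cbwd1, with fold enrichments of 5.41, 5.41, 4.87 and 5.23, and 3 of these summits were nearer to the Cbwd1 TSS than to that of Foxd4. The fifth was 31.1 kb downstream with 6.50-fold enrichment and nearer to the coding gene Gm10053. Foxb2, an embryonic gene of the nervous system, had 3 peaks, all upstream and intergenic, at 6.52, 25.1 and 38.1 kb with fold enrichments of 8.89, 4.27 and 6.23, and it was the nearest coding gene to each. The middle peak carried the only ATTAGTCAC of the set, 36.0 bp from its summit.

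Foxe1, a thyroid gene, had peaks on both sides, 35.6 kb upstream in the non-coding gene Gm12446 with 8.72-fold enrichment and 24.2 kb downstream with 6.63-fold. Foxh1, the nuclear partner of Smad proteins in nodal signalling, had 1 peak of 8.32-fold, 43.8 kb downstream. Its summit was in an exon of Tonsl and only 118 bp from the TSS of Vps28, a subunit of the ESCRT-I sorting complex. Foxi2 (5.76-fold, 32.8 kb upstream) and Foxi3 (3.76-fold, 43.2 kb downstream) had 1 peak each. Foxb1 and Foxi1 had none, with nearest summits 139 and 331 kb away.

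The remaining families were those of cilia, thymus, cell cycle and gonad. In these, 6 of 10 genes had a peak (60.0%, against 56.8% of all coding genes), with 9 pairs. Foxj1, the factor of motile cilia, had a pair of strong peaks upstream, both in the ubiquitin ligase gene Rnf157. The nearer one, 8.87 kb away with 7.67-fold enrichment, was in a coding exon, and the farther one, 43.3 kb away with 9.24-fold, in an intron. The latter ranked second by fold enrichment among the 40. Foxj2 had 1 peak 9.30 kb upstream with 7.16-fold enrichment, whose width of 614 bp was the greatest of the set. Foxj3, which has been linked to Mef2c expression in muscle, had none, and its nearest summit was 128 kb downstream with 4.65-fold enrichment. Foxn1, the nude gene of thymic epithelium, had a pair of adjacent peaks in its own introns, 22.2 and 22.7 kb downstream, with 5.39-fold and 6.28-fold enrichment. Foxn3 had a pair 17.8 and 19.5 kb upstream with 4.09-fold and 3.84-fold. Foxm1, the mitotic regulator, had 1 of 4.01-fold in Tulp3, 33.5 kb upstream. Foxr1 had the weakest of all, 3.24-fold with a −log10 q of 4.20. It lay 33.3 kb downstream of Foxr1 but 23 bp from the TSS of Trappc4, a gene of vesicle transport. Foxn2, Foxl2 and Foxn4 had none within the window, and the summit nearest to Foxn2, 64.8 kb downstream, was stronger (9.56-fold) than all but 1 of the 40.

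Of the 3 endoderm pioneer factor genes, Foxa2 had 1 peak 40.4 kb upstream with 7.15-fold enrichment, Foxa1 had 1 peak 16.1 kb downstream with 4.54-fold, and Foxa3 had none. The 50 kb limit passed between close neighbours. The farthest summits inside it were those of Foxp1 (48.4 kb), Foxd1 (47.5 kb) and Foxf2 (47.2 kb), and the nearest outside it were those of Foxk2 (51.3 kb), Foxs1 (51.99 kb) and Foxa3 (52.5 kb).

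Many of the peaks were nearer to another coding gene than to the forkhead gene. For 23 of the 40 peaks the nearest coding TSS was that of a forkhead gene, 15 genes in all, whereas for 17 it belonged to another gene. Besides those named above, these were the peaks of Foxp4 (nearest to Mdfi), Foxj2 (Slc2a3), Foxi2 (4930544L04Rik), Foxm1 (Tulp3) and both of Foxn1 (Unc119). They were also the farther Foxj1 peak (Rnf157), the downstream Foxe1 peak (5830415F09Rik), the peak between Foxq1 and Foxf2 (A530084C06Rik) and the Foxk1 peak at 40.4 kb (C330006K01Rik). With only those 23 peaks kept, 40.5% of forkhead genes had a peak, against 32.8% of all coding genes counted in the same way. The 2 summits within 1 kb of any coding TSS were those at Vps28 and Trappc4, so 5.00% of the forkhead-linked peaks were promoter peaks of any coding gene, against 11.98% of all autosomal peaks. Summits lay in introns for 17 peaks (42.5%), in exons for 3 (7.50%) and between genes for 20 (50.0%), against 47.1%, 7.02% and 45.9% of all autosomal peaks.

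In strength the 40 peaks were near the rest of the list. Fold enrichment ran from 3.24 to 13.4 with a median of 5.76 (quartiles 4.50 and 7.15), against a median of 5.22 (4.30 and 6.75) for the 20336 autosomal peaks. At least 5-fold enrichment was reached by 28 peaks (70.0%), against 54.9% of all, but at least 10-fold by only 1 (2.5%), against 7.04%. The median and both quartiles were thus slightly higher near forkhead genes, whereas the share of at least 10-fold was lower and rested on 1 peak. Their median −log10 q was 13.9, against 11.6, and their median width 273 bp, against 252 bp.

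**Figure D3:**
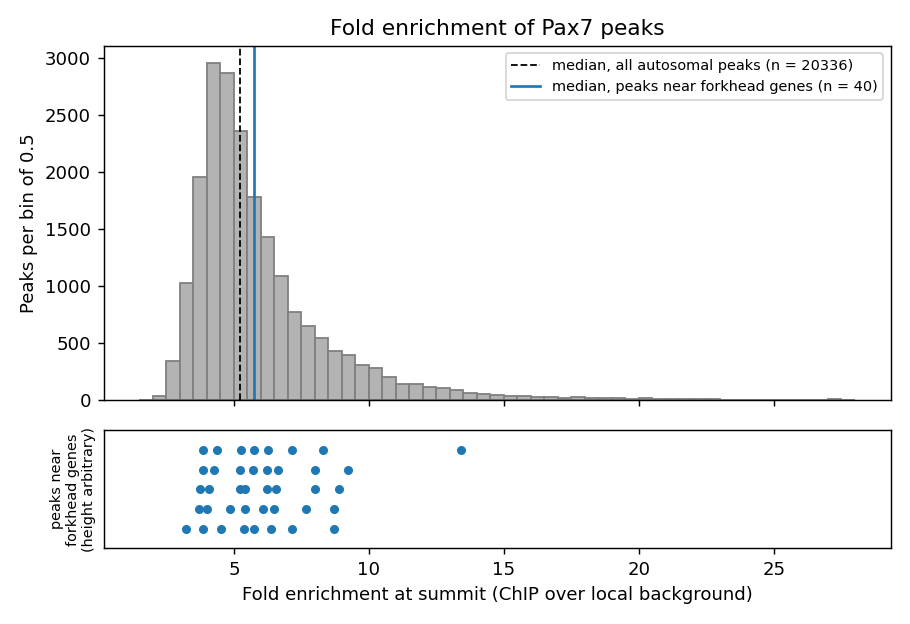
Fold enrichment at the summit (ratio of ChIP to local background, horizontal axis) of all 20336 autosomal Pax7 peaks as a histogram in bins of 0.5 (upper panel, number of peaks), and of the 40 peaks near forkhead genes as points (lower panel, height arbitrary). Lines mark the medians, 5.22 for all peaks and 5.76 near forkhead genes. The forkhead points lie between 3.24 and 9.24 except for the Foxp1 peak at 13.4.

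A Pax motif lay within 50 bp of the summit in 7 of the 40 peaks, or 17.5% (interval 8.75% to 31.9%), against 13.8% of all autosomal peaks. GTCACG accounted for 6 (15.0% against 11.2%) and ATTAGTCAC for 1 (2.5% against 1.18%). The homeodomain palindrome, TAAT followed by ATTA 2 or 3 bases on, was found in 0 of 40 (upper limit 8.76%) and in 1.81% of all. These letters thus occurred at about the rate of the whole list. The forkhead motif TGTTTAC was in 0 of the 40 summit windows (upper limit 8.76%) and in 1.34% of all windows. A count of 0 in 40 could not be told from 1.34% at this number of peaks. Both strands were read, the forkhead motif was counted apart from the 3 Pax motifs, and ATTAGTCAC includes GTCACG where a G follows it. Across the 7 peaks the motif centre was 0.500 to 40.5 bp from the summit, and their fold enrichment ran from 3.24 (Foxr1) to 13.4 (Foxp1), so motif-bearing peaks were found at both ends of the range.

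The window around the TSS left out the peaks inside the longest members, which were looked at after the counts above were known. Foxp1, Foxp2 and Foxn3 were the 3 forkhead genes of at least 200 kb, and they held 27 peaks, all in their introns and all more than 50 kb from the TSS. In Foxp1, which is 341 kb long, there were 10, or 2.93 per 100 kb, a higher density than in 93.6% of the 909 coding genes of that length, whose median was 0.840 per 100 kb. Foxn3 (255 kb) had 8, or 3.14 per 100 kb, more than 94.8% of them. Foxp2 (541 kb), a gene known from speech and the striatum, had 9, or 1.66 per 100 kb, more than 75.7%. Within 50 kb of the TSS, by contrast, Foxp2 had no peak and Foxn3 had a pair below 5-fold.

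The strongest of these internal peaks was in Foxp1, 311 kb into the gene, over chr6:98905779-98906516, with a fold enrichment of 13.3 (−log10 q 61.3), close to the values of the peak 16.8 kb upstream of the gene. The remaining 9 Foxp1 peaks ran from 3.67-fold to 9.60-fold. In Foxn3 the range was 3.95 to 9.15, with the top values 210 and 113 kb into the gene, and in Foxp2 it was 3.55 to 8.82. Of the 27 internal peaks, 3 lay within 1 kb of an internal start of a coding transcript, and the other summits were 2095 to 238475 bp from the nearest one. In Foxp2, a summit of 6.23-fold lay 204 bp upstream of a start 284 kb into the gene, and 5 of the 9 peaks fell between 284 and 325 kb. In Foxn3, a summit of 4.32-fold was 710 bp downstream of a start 56.3 kb into the gene, and in Foxp1 a summit of 4.19-fold was 760 bp downstream of a start at 238 kb. With every coding transcript start counted, 3 of 37 forkhead genes (8.11%, interval 2.8% to 21.3%) had a summit within 1 kb, against 13.7% of all coding genes, a share inside that interval. The strongest internal Foxp1 peak and the Foxp2 peak by the internal start had these sequences around their summits (mm9, plus strand), neither of which held a Pax motif.
Foxp1, 311 kb into the gene, chr6:98905902-98906002: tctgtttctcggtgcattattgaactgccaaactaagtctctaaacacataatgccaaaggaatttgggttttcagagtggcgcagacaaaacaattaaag
Foxp2, 284 kb into the gene, chr6:15134949-15135049: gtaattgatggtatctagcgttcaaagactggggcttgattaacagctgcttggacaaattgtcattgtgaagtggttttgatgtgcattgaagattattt

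**Figure D4:**
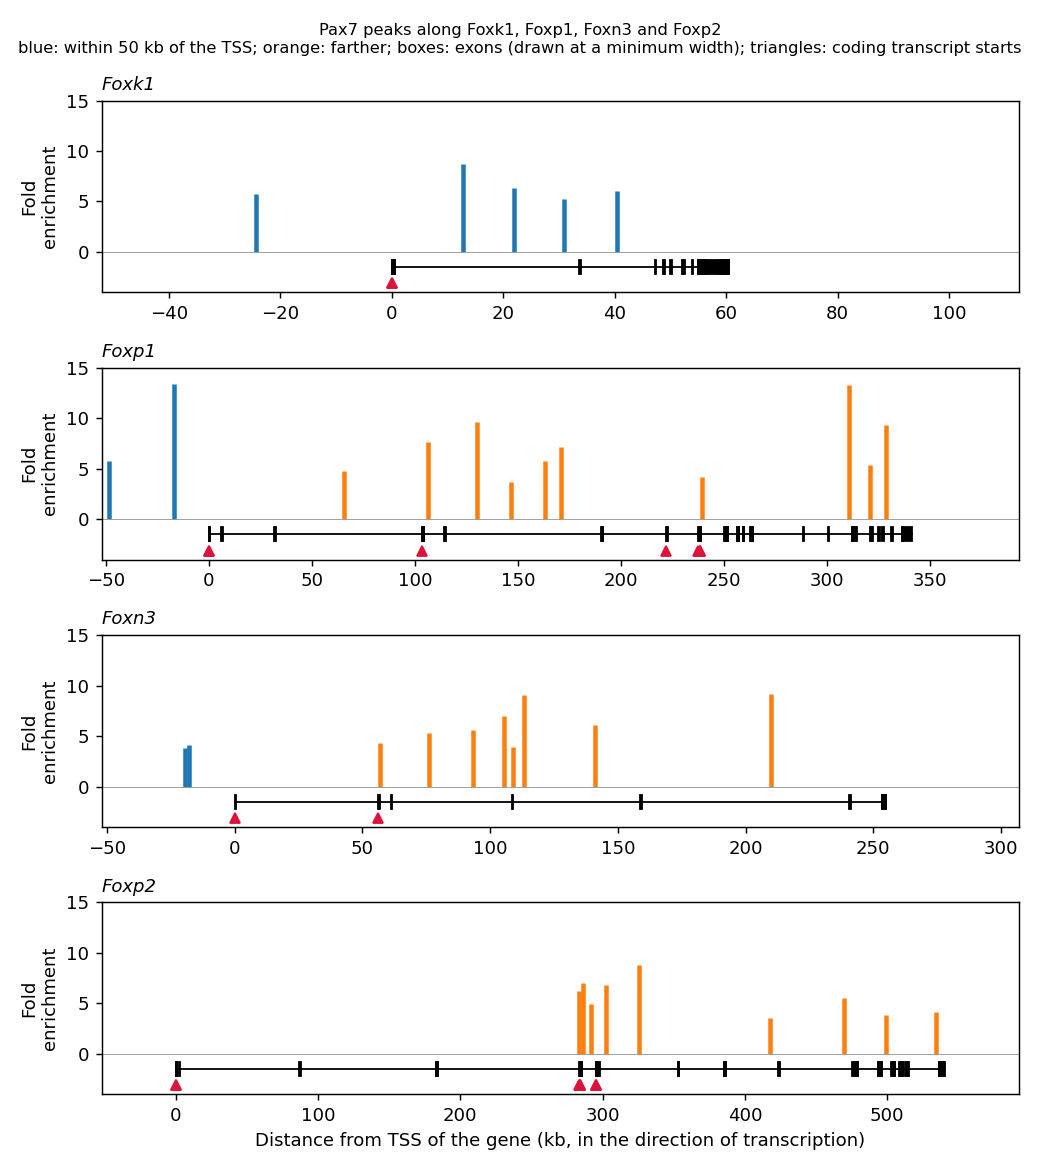
Pax7 peaks along Foxk1, Foxp1, Foxn3 and Foxp2. The horizontal axis of each panel is the distance from the gene's TSS in kb in the direction of transcription, bar height is fold enrichment, boxes are exons at a minimum width and triangles are coding transcript starts. Blue bars are within 50 kb of the TSS and orange bars farther. All 5 Foxk1 bars are blue, whereas 10 of the 12 Foxp1 bars and all 9 of Foxp2 are orange.

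A Pax motif was found within 50 bp of the summit in 3 of the 27 internal peaks (11.1%), against 13.8% of all autosomal peaks. With the gene body and 50 kb on either side counted, there were 72 peaks near 27 forkhead genes. The share of forkhead genes with a peak was then 73.0% (interval 57.0% to 84.6%) against 63.8% of all coding genes, which the interval included. The mean was 2.00 per gene against 1.63 for all coding genes. A peak inside the gene itself was nonetheless no more frequent, in 7 of 37 forkhead genes (18.9%) against 22.9% of all. Forkhead genes are short, with a median length of 4.70 kb against 15.5 kb.

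Genes that act with forkhead factors were counted in the same way. Of 13 Foxo target genes, 11 had a Pax7 peak within 50 kb (84.6%, interval 57.8% to 95.7%, against 56.8% of all coding genes), with a mean of 2.08 and a median of 1. A summit within 1 kb of the TSS was found for 5 of these targets (38.5%, interval 17.7% to 64.5%), against 12.1% of all coding genes. They were Cdkn1b, a cell cycle inhibitor (61 bp, 6.44-fold), Ccng2, cyclin G2 (81 bp), Sesn3, a stress-response gene (268 bp, 5.23-fold), Pdk4, the kinase that restrains pyruvate dehydrogenase (342 bp, 8.11-fold), and Gadd45a, a growth arrest gene (928 bp). The interval of 17.7% to 64.5% included the 21.4% of all coding genes with CpG-rich promoters. How many of the 13 targets have such promoters was not counted. Ccng2 had 6 peaks in its window, with a highest fold enrichment of 8.99, Txnip had 5, and Gadd45a and the muscle atrophy ubiquitin ligase gene Fbxo32 had 4 each. Trim63, the other atrophy ligase gene, had 1, at 41.5 kb. Bnip3 and Map1lc3b, both of autophagy, had none. Of 6 co-repressor genes whose products work with Foxk and Foxp proteins, 4 had a peak (66.7%, interval 30.0% to 90.3%, against 56.8% of all). They were Sin3b (10.5-fold, 10.4 kb away), Sin3a (3.84-fold, 3.79 kb), Suds3 (4.36-fold, 4.11 kb) and Gatad2b (4.54-fold, 48.8 kb), whereas Ctbp1 and Mta1 had none. These lists were chosen from textbook knowledge, but with earlier results of these data known. They are small and share the one peak list, so their counts are descriptions.

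The 30 autosomal Sox and T-box genes, other families of developmental factors, served for comparison. Of these, 18 had a peak within 50 kb (60.0%, interval 42.3% to 75.4%, against 56.8% of all coding genes), with a mean of 1.27, and 3 had a summit within 1 kb (10.0%, interval 3.46% to 25.6%, against 12.1%). Both shares were near the background. At 50 kb the forkhead interval of 48.8% to 78.2% overlapped theirs over most of its length. At 1 kb the intervals also overlapped, 0% to 9.41% for forkhead genes and 3.46% to 25.6% for Sox and T-box genes.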

How the data were processed

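Pax7 ChIP-seq of Dox-treated iPax7 cells comprised 2 ChIP libraries and 2 inputs. Single-end reads were mapped by the authors with bowtie2 (2.3.4.1) to NCBIM37, also called mm9. Only reads with a unique position were retained, duplicates were taken out by Picard (1.88), and replicates were pooled before peak calling by MACS2 (2.1.1), for which the q-value limit was 0.01. The deposited list gives 5 values per peak. The fold enrichment is a ratio the authors obtained with MACS2 from pooled ChIP reads over the local background. Further deposited columns hold the −log10 p-value, the −log10 q-value, a score (10 times the −log10 q, cut to a whole number) and the summit position. These columns served to describe, rank and filter peaks. The list gives no read counts, so the depth behind a peak is unknown. Per-sample columns that matched no sample numbered 0.

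Summits were placed on GENCODE genes of NCBIM37, taking the 5′ end of the gene record as the TSS, with 1-based coordinates. Sequences came from that genome. CpG-rich promoters had a GC content of at least 50% and an observed over expected CpG ratio of at least 0.6 over 500 bp on either side of the TSS. The motif search covered 50 bp to either side of a summit and both strands. Shares carry 95% Wilson intervals, which cover counting error only, and nothing was tested, because the list was called on merged replicates. Summit counting and motif search were tested on simulated data first. The tools were Python 3.11.15 with pysam 0.24.0, scipy 1.17.1, pandas 2.3.3, numpy 2.4.6 and matplotlib 3.10.9.

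The members, the gene lists and the motifs were chosen with earlier results of these data known. Named with every peak were the 8 members with the most peaks and those holding one of the 10 strongest peaks. Also named in any case were Foxc1, Foxc2, Foxf1, Foxk1, Foxk2, Foxo3, Foxp1, Foxp2, Foxp4 and Foxj3. Other members were named after their values were seen, as were the peaks inside long genes and at internal starts. Foxf1 is called Foxf1a in the annotation and so falls outside the symbol rule, 2 further forkhead genes are not analysed here, and 1 member is counted but not reported by name. Alternatives tried were 25 and 100 kb around the TSS, 5 kb in place of 1 kb, any coding transcript start, a minimum of 5 for fold enrichment or for −log10 q, peaks within 500 bp merged, any overlap of peak and window, the nearest TSS only, isolated genes only, and motif windows of 25 and 100 bp. Added after seeing the data were the gene body with 50 kb on either side, a background without olfactory and vomeronasal receptor genes, inclusion of Foxf1a, CpG-rich promoters only, and 2 kb in place of 1 kb. Expression and other ChIP-seq data were not analysed here.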

Additional observations from a re-analysis of the deposited data

How the results depend on the processing

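Of 46 alternative values, 33 stayed close to the reported value, 11 moved and 2 reversed against the background. The share of forkhead genes with a peak, 64.9% within 50 kb against 56.8% of all coding genes, reversed within 25 kb to 35.1% against 39.9%. It moved to 86.5% against 73.6% within 100 kb, to 48.6% against 38.9% with a fold enrichment of at least 5, and to 40.5% against 32.8% with the nearest TSS only. The mean number of peaks per gene, 1.14, became 0.459 within 25 kb, 2.35 within 100 kb, 0.622 with the nearest TSS only and 2.00 over the gene body with 50 kb on either side. The mean was level with all coding genes (1.14) as reported, and it fell on either side of them under the alternatives. It was above them with any coding transcript start (1.51 against 1.25), a fold enrichment of at least 5 (0.811 against 0.589) and a −log10 q of at least 5 (1.11 against 1.05). The same was true of isolated genes only (1.36 against 0.991), 100 kb (2.35 against 2.21), the nearest TSS only (0.622 against 0.523) and the gene body (2.00 against 1.63). It was below them within 25 kb (0.459 against 0.615), with Foxf1a included (1.11 against 1.14) and without olfactory and vomeronasal receptor genes (1.14 against 1.22). The number of peaks, 40, became 17 within 25 kb, 82 within 100 kb, 23 with the nearest TSS only and 72 over the gene body. The share of peaks with a Pax motif, 17.5% against 13.8% of all peaks, reversed within 25 bp to 7.50% against 8.84%. Windows of another size hold other numbers of peaks by construction. The share of forkhead genes with a summit within 1 kb, 0% against 12.1%, had intervals below the background at 2 kb (2.70%, up to 13.8%, against 14.2%), at 5 kb (5.41%, up to 17.7%, against 18.6%) and with CpG-rich promoters only (0%, up to 13.3%, against 21.4%). The interval included the background with a fold enrichment of at least 5 (0%, up to 9.41%, against 6.15%) and at any coding transcript start (8.11%, 2.8% to 21.3%, against 13.7%), so no difference was detectable under these settings. A background without olfactory and vomeronasal receptor genes had a peak within 50 kb for 60.4% of genes.

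No paired analysis was possible because the peak list was called on merged replicates. For the same reason leaving out each replicate could not be run. With 37 genes the Wilson interval of the share within 50 kb ran from 48.8% to 78.2%, so a difference of the size seen was not detectable. Peaks below the authors' q-value limit are not in the list.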

Other observations

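Forkhead genes outside the symbol rule were looked up in the same list. Foxf1a, the annotation's name for Foxf1 (a factor of lateral mesoderm and its mesenchyme), had no Pax7 summit within 50 kb. Its nearest, 60.5 kb away, was the 4.19-fold peak that was also nearest to Foxc2. Foxl1, which the annotation lists as a pseudogene, stands in the same cluster on chromosome 8, and this peak was 104 kb from it. The Foxf1a, Foxc2 and Foxl1 cluster thus held no summit within 50 kb of any of its TSSs. Among X-linked forkhead genes, which the autosomal rule leaves out, Foxo4 had 1 peak, 31.9 kb away with 6.45-fold enrichment. Foxp3, the factor of regulatory T cells, and Foxr2 had none, with nearest summits 117 and 884 kb away.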
